A study of Saccharomyces cerevisiae with 2 samples.

Results

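The 7 genes described here encode the enzymes that turn 2-oxoglutarate and acetyl-CoA into lysine in the budding yeast Saccharomyces cerevisiae. They were taken by their systematic names from the deposited table, where all 7 were found among 7163 features, as LYS1 (YIR034C), LYS2 (YBR115C), LYS4 (YDR234W), LYS9 (YNR050C), LYS12 (YIL094C), LYS20 (YDL182W) and LYS21 (YDL131W). RNA was sequenced from strain MF02, labelled wild type, and from strain UV02_HG, both grown with 40% (w/v) glucose and collected in the middle of exponential growth. The series title names high glucose tolerance as its subject, and UV02_HG can be compared with MF02 alone. How UV02_HG was derived, whether it is 1 clone, and any further alleles in either strain are not stated there.

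Fungi make lysine by the aminoadipate route, which begins like the citric acid cycle and the leucine pathway and ends with the splitting of saccharopine. In yeast, lysine inhibits homocitrate synthase, the first enzyme, and a late intermediate, aminoadipate semialdehyde, lets the activator Lys14 turn the LYS genes on. Gcn4, the activator of general amino acid control, acts on many amino acid synthesis genes, LYS genes among them.

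Because Lys14 and Gcn4 are the known activators, the 500 bases before each start codon were searched on both strands. The letters were TCCNNNGGA for the Lys14 box, with any base at each N, and TGACTC, the core of the Gcn4 site. TCCNNNGGA leaves the middle bases free, so a match, called a box below, need not be a full Lys14 box. The sequence is that of the reference strain S288C (RefSeq, R64), and MF02 and UV02_HG may differ from it. The box was found before 4 of the 7 genes, against 5.95% of 6019 protein-coding genes. LYS9 held 2 boxes, and 0.166% of those genes held 2 or more. Lys14 is already known to act on LYS genes, so the higher share before them is not a new result. The 5 boxes are shown on the coding strand of each gene, 5′ to 3′, with the matching letters in capitals. In this order they begin 196, 225, 163, 182 and 330 bases before the start codon.

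LYS1, chromosome IX, minus strand: atttttttttTCCAGCGGAatttggaatt
LYS9, first box, chromosome XIV, minus strand: gaatcgaaatTCCGTTGGAaaaattcgct
LYS9, next box, chromosome XIV, minus strand: attgagaattTCCAATGGAattatcagca
LYS12, chromosome IX, minus strand: ttcactttttTCCCGTGGAaaaatattct
LYS21, chromosome IV, plus strand: gagttgaaatTCCGCTGGAaatcgtcacc

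The Gcn4 letters occurred before 3 of the 7 genes, against 12.6% of all promoters, with 2 matches before LYS1, and 1.43% of promoters held 2 or more. The matches begin 249 and 134 bases before the start codon of LYS1, 194 before that of LYS2 and 158 before that of LYS12. None overlapped a match to the Lys14 letters. Both LYS1 matches read TGACTC on the opposite strand, so that GAGTCA stands in capitals.

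LYS1, first site, chromosome IX, minus strand: ctaagtcgatGAGTCAaaaaagactc
LYS1, next site, chromosome IX, minus strand: cagcgacaaaGAGTCAtaaagtcatc
LYS2, chromosome II, minus strand: ttttcgcgtgTGACTCaatgtcgaaa
LYS12, chromosome IX, minus strand: attcttaagaTGACTCtaattagagg

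LYS4 and LYS20 held neither set of letters in this window. A match is a description of the letters and not evidence of binding.

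All values are FPKM, fragment counts divided by gene length and by the counted reads of the library, so they are relative to the RNA counted and give no amount per cell. Each strain had 1 sample with 2 columns of values, resting on 12507299 to 15144991 counted reads. The series design speaks of sequencing in duplicate, but GEO lists 1 sample per strain and the labels do not tell whether a strain's columns stem from separate cultures. They were treated as runs of 1 sample, so no difference below has a replicate check and no p-value is given. The strain value is the mean of its columns, and the log2 ratio is that of UV02_HG over MF02 after adding 1 FPKM, which understates differences of low genes. At least 2-fold means a log2 ratio of 1 or more in size.

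As deposited, all 7 lysine genes were lower in UV02_HG. The log2 ratios ran from -2.73 (LYS2) to -1.48 (LYS12) with a median of -1.87, and all 7 were at least 2-fold lower. The background for that count is high, since 47.2% of the 6291 expressed features (1 FPKM or more in a strain) were at least 2-fold lower, and 14.7% were at least 2-fold higher. The median over all those features was -0.89. Both UV02_HG columns lay below both MF02 columns for all 7 genes, as they did for 56.4% of all features. Each UV02_HG column can be set against each MF02 column, and in all 4 such column comparisons 5 of the 7 genes were at least 2-fold lower, against 24.9% of all features. The other two, LYS9 and LYS12, missed 2-fold in 1 comparison, that of UV02_HG column 1 with MF02 column 1. Together the 7 genes had 534 and 776 FPKM in the MF02 columns and 203 and 162 FPKM in the UV02_HG columns.

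The strain ratio followed gene length across the genome, so each gene is also given relative to its length. The length-relative log2 ratio is the ratio minus the running median of genes of like coding length (100 on either side). Coding lengths of the 7 genes ran from 1116 nt (LYS12) to 4179 nt (LYS2), and 5 of them lay above 1000 and up to 1500 nt, where the median ratio of 1272 genes was -1.27. Relative to length the median of the 7 was -0.43. All 7 were still below 0, as were 49.8% of 5695 genes, although LYS9 and LYS4 stood within 0.1 of 0, and both lay above 0 relative to length and GC content (0.17 and 0.52). Relative to length, LYS2 alone of the 7 was at least 2-fold lower, against 16.8% of the genes, and 0 of the 7 were at least 2-fold higher, against 17.1%. Over the 4 column comparisons the length-relative median of the 7 ran from -0.76 to -0.42, and 4 of the 7, LYS1, LYS2, LYS20 and LYS21, were below 0 in all of them, against 33.1% of the genes. Relative to length and GC content, LYS2 stood at -1.22, but LYS1 at -0.47, LYS20 at -0.38 and LYS21 at -0.11 were nearer to 0 than relative to length alone.

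**Figure D1:**
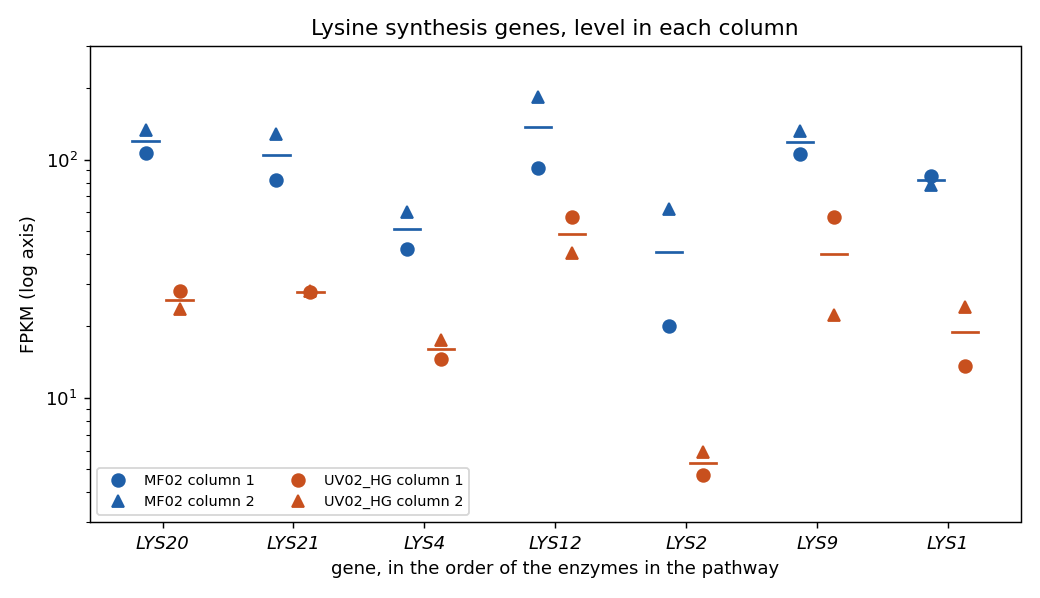
FPKM (log axis) of the 7 lysine synthesis genes in the order of the pathway, with circles for column 1, triangles for column 2 and bars for the mean of each strain's 2 columns. For each gene both UV02_HG columns lie below both MF02 columns, and LYS2 is the lowest gene in UV02_HG at 4.73 and 5.93 FPKM.

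The first step, the joining of acetyl-CoA to 2-oxoglutarate, is carried out by the homocitrate synthase isozymes Lys20 and Lys21. LYS20 had 107 and 133 FPKM in the MF02 columns and 27.96 and 23.5 FPKM in those of UV02_HG. Its MF02 and UV02_HG columns were well apart, at 4.53-fold lower in UV02_HG (3.73 to 5.48 over the 4 column comparisons), a log2 ratio of -2.18 and -0.87 relative to length. LYS21 had 81.8 and 128 FPKM in the MF02 columns and 27.7 and 27.99 FPKM in those of UV02_HG. It was 3.66-fold lower (2.85 to 4.48), with a log2 ratio of -1.87 and -0.43 relative to length, and its UV02_HG columns were nearly equal. The share of LYS20 in the summed FPKM of the isozymes was 56.7% and 51.1% in MF02 and 50.2% and 45.7% in UV02_HG. The strains did not overlap in this share, but the MF02 columns differed from each other by more than the nearest columns of the strains did.

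The isozyme genes resemble each other, which limits how far their reads can be told apart. Their coding sequences were identical at 1175 of 1278 aligned positions (91.9%) in R64, and the longest identical run was 278 nt. Of the windows of 100 nt in LYS20, 24.4% also occurred in LYS21, and for windows of 50 nt the share was 37.8%. For the other 5 genes no such window was found elsewhere in the genome. How reads that fit both genes were counted is not stated in the labels.

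Lys4 and Lys12 act next, in mitochondria. LYS4, the gene of the iron-sulfur enzyme homoaconitase, had 42.1 and 60.2 FPKM in the MF02 columns and 14.5 and 17.5 FPKM in those of UV02_HG. Both UV02_HG columns were low, 3.07-fold below MF02 (2.33 to 3.95), and the log2 ratio was -1.62, or -0.07 relative to length, so LYS4 differed about as much as other genes of its length. LYS12, the gene of homoisocitrate dehydrogenase, had 92.4 and 183 FPKM in the MF02 columns and 57.2 and 40.4 FPKM in those of UV02_HG. By the mean of either strain it was the most abundant of the 7, but LYS20 and LYS9 were higher in MF02 column 1. LYS9 was also higher in UV02_HG column 1. As deposited, LYS12 had the smallest difference of the 7, 2.78-fold (1.61 to 4.44), a log2 ratio of -1.48 and -0.26 relative to length. The MF02 columns of LYS12 were 1.97-fold apart, and that gap alone was larger than the distance from MF02 column 1 to UV02_HG column 1.

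Lys2, the large aminoadipate reductase, makes the semialdehyde to which Lys14 responds. LYS2 had 19.95 and 62.2 FPKM in the MF02 columns and 4.73 and 5.93 FPKM in those of UV02_HG. By the strain means it had the largest difference of the 7, 6.65-fold lower (3.02 to 11.04), with a log2 ratio of -2.73 and -1.18 relative to length. That rank rested on MF02 column 2, without which LYS2 stood at -1.73, behind LYS1 (-2.12) and LYS20 (-2.01). The MF02 columns were 3.02-fold apart, the widest gap of the 7 genes, while the UV02_HG columns were 1.21-fold apart. In every column comparison LYS2 stayed low for its length, between -1.31 and -0.98. Counted as reads it had 5004 in MF02 and 570 in UV02_HG, an 8.03-fold lower share of the library, with an exact 95% interval of 7.36 to 8.77 that covers counting error only.

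The last steps form saccharopine with Lys9 and split it into lysine with Lys1. LYS9 had 106 and 131 FPKM in the MF02 columns and 57.6 and 22.3 FPKM in those of UV02_HG. Here the UV02_HG columns were 2.51-fold apart, and 8.09% of all features had UV02_HG columns at least 2-fold apart. Their exact counting intervals, 54.0 to 61.3 and 20.1 to 24.6 FPKM, did not meet. LYS9 was 2.92-fold lower (1.82 to 5.68), a log2 ratio of -1.54 and -0.01 relative to length, where the column comparisons ran from -1.18 to 0.64. LYS1 had 85.3 and 78.4 FPKM in the MF02 columns and 13.5 and 24.1 FPKM in those of UV02_HG. It was the only one of the 7 that was not higher in MF02 column 2 than in column 1. LYS1 was 4.18-fold lower (3.17 to 5.93), with a log2 ratio of -2.07 and -0.82 relative to length. Its UV02_HG columns were 1.72-fold apart, and over the column comparisons its length-relative value ran from -1.68 to -0.12.

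FPKM are per length, so levels can be set side by side, although the length trend between the columns also enters their order. LYS2, the longest gene, was lowest in 3 of the 4 columns, and LYS4 in MF02 column 2. By the means of MF02 it was LYS12, LYS20, LYS9, LYS21, LYS1, LYS4 and LYS2, from 138 to 41.1 FPKM. The only neighbours in that order whose column ranges did not overlap were LYS1 and LYS4. In UV02_HG the order was LYS12, LYS9, LYS21, LYS20, LYS1, LYS4 and LYS2, from 48.8 to 5.33 FPKM, and only LYS4 and LYS2 were apart. The highest gene was 5.36-fold and 3.04-fold above the lowest in the MF02 columns and 12.2-fold and 6.82-fold in the UV02_HG columns.

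MF02 column 2 was above column 1 for 6 of the 7 lysine genes, as it was for 66.0% of all features, and at least 2-fold above for LYS2, against 28.0% of features. Over the 5695 genes, which do not count as independent replicates, length had a Spearman's rho of 0.62 with the ratio of the MF02 columns, -0.53 with the strain ratio and 0.07 with the ratio of the UV02_HG columns. Without MF02 column 2 the median of the lysine genes was -1.52 and 6 of the 7 were at least 2-fold lower, against 32.7% of all features. The part of this length trend in the differences of the lysine genes was not tested beyond the length-relative values. Of the features past 2-fold, 23.8% were higher as deposited. Equal FPKM totals moved the median of all features by -0.98 and that share to 6.43%. Upper quartile scaling moved them by 0.66 and to 47.5%, centring on the median feature by 0.89 and to 58.1%, and a trimmed mean of M values by 0.79 and to 53.6%. All 7 lysine genes remained below 0 under each of the 4, between -1.84 and -0.59 after centring, where 3 were at least 2-fold lower, against 20.6% of all features.

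**Figure D2:**
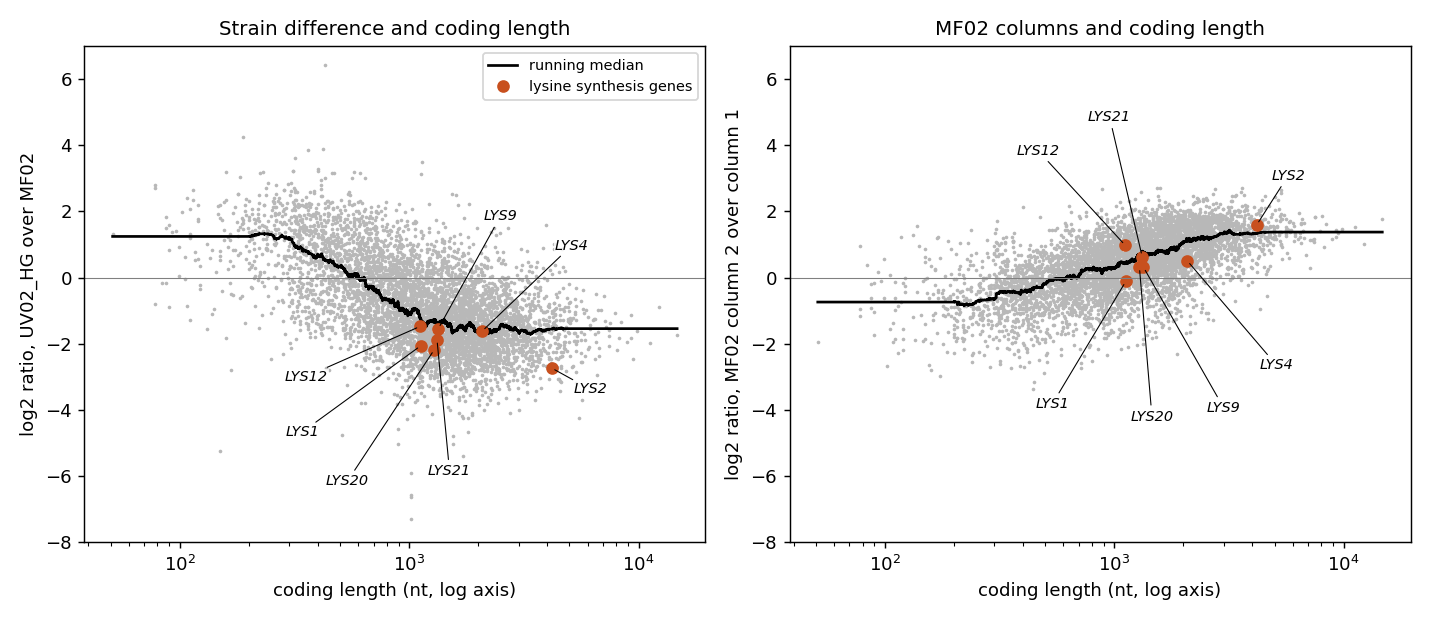
Left, log2 ratio of UV02_HG over MF02 against coding length (log axis) for 5695 genes (grey) with the running median (black) and the 7 lysine genes (orange). Right, the same for MF02 column 2 over column 1. The lysine genes lie at or below the line on the left, from LYS12 at -1.48 to LYS2 at -2.73, and on the right LYS2 is highest at 1.59.

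The ratios of genes with and without the promoter letters overlapped. The 4 genes with a match to the Lys14 letters had log2 ratios of -2.07 (LYS1), -1.54 (LYS9), -1.48 (LYS12) and -1.87 (LYS21). The 3 without one had -2.73 (LYS2), -1.62 (LYS4) and -2.18 (LYS20). LYS1, LYS2 and LYS12, which held the Gcn4 letters, spanned the ratios of the other 4, from -2.18 to -1.54. A link between letters and ratio was not tested.

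Of 7 genes that serve or regulate the pathway, 5 were at least 2-fold lower in UV02_HG and 1 was higher. The shares of all features were 47.2% and 14.7%. The median of the 7 was -1.58, or -0.27 relative to length. The activator gene LYS14 had 11.6 and 23.5 FPKM in the MF02 columns and 4.55 and 5.88 FPKM in those of UV02_HG, a log2 ratio of -1.58 but 0.02 relative to length. GCN4, whose protein level is set largely by translation, had 614 and 863 FPKM against 256 and 210 FPKM. Both columns of UV02_HG were low, with a log2 ratio of -1.66 and -0.98 relative to length. MKS1, a regulator once named LYS80, had a log2 ratio of -2.21 and -0.60 relative to length.

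LYS5 went the other way from the enzyme it serves. Its product attaches the phosphopantetheine arm without which Lys2 is inactive. LYS5 had 59.7 and 43.0 FPKM in the MF02 columns and 88.9 and 167 FPKM in those of UV02_HG, with both UV02_HG columns above both MF02 columns, as for 20.7% of all features. The log2 ratio was 1.30 (0.57 to 1.94), or 1.98 relative to length, against -2.73 and -1.18 for LYS2. With equal FPKM totals LYS5 stood at 0.22, and under the other scalings between 1.97 and 2.19. At 819 nt LYS5 is a short gene, and short genes had higher ratios than long ones. The running median at its length was still below 0, at -0.68.

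The remaining helpers divided. ARO8, an aminotransferase gene that also serves the aminoadipate step, had 115 and 180 FPKM in the MF02 columns and 30.8 and 36.9 FPKM in those of UV02_HG, a log2 ratio of -2.09 and -0.71 relative to length. The mitochondrial oxodicarboxylate carrier genes parted. ODC1 had a log2 ratio of -1.20 (-2.07 to -0.06) and ODC2 had 0.89 (-0.15 to 1.58), with the columns of ODC2 overlapping between the strains and its ratio at -0.21 with equal FPKM totals.

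Lysine can also be taken up or drawn from the vacuole, and 10 transport genes were measured. Of them 3 were at least 2-fold lower and 1 was higher, against 47.2% and 14.7% of all features. Their median was -0.50, or 0.85 relative to length. That median turned positive under 3 of the 4 scalings (0.39 after centring), and the same holds for VBA1, VBA3, YPQ1 and YPQ2 below, whereas that of the enzymes stayed negative. LYP1, the lysine permease gene, had 65.97 and 110 FPKM in the MF02 columns and 31.4 and 35.4 FPKM in those of UV02_HG. Its log2 ratio was -1.37, and relative to length it stood at 0, as LYP1 was itself the median of its neighbours in length. CAN1, the arginine permease gene, was lowest at -2.59, or -1.12 relative to length, with 34.7 and 54.97 FPKM against 5.10 and 8.13 FPKM. The general amino acid permease gene GAP1 had -1.20 (-2.03 to -0.14), and the arginine permease gene ALP1, at a low level, had -0.79, which turned to 0.10 after centring.

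Among genes for vacuolar transport of basic amino acids, RTC2 was at least 2-fold higher in UV02_HG, with 163 and 56.1 FPKM in the MF02 columns and 358 and 246 FPKM in those of UV02_HG. Its log2 ratio was 1.45 (0.59 to 2.65) and 2.26 relative to length. With equal FPKM totals RTC2 stood at 0.44, and under the other scalings between 2.09 and 2.34. The related genes YPQ1 (-0.12) and YPQ2 (-0.05) were near 0, and their columns overlapped between the strains. VBA1 had a log2 ratio of -0.62, VBA2 0.60 (-0.32 with equal FPKM totals) and VBA3 -0.38, the last at a level of 2.49 FPKM or less. Relative to length these 6 genes stood between 0.82 and 2.26. For attaching lysine to its transfer RNA, the mitochondrial synthetase gene MSK1 had a log2 ratio of -2.34 and -0.78 relative to length, while the cytosolic one, KRS1, is listed at 0 in all 4 columns. KRS1 is an essential gene, so this 0 is not read as an absence of RNA.

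**Figure D3:**
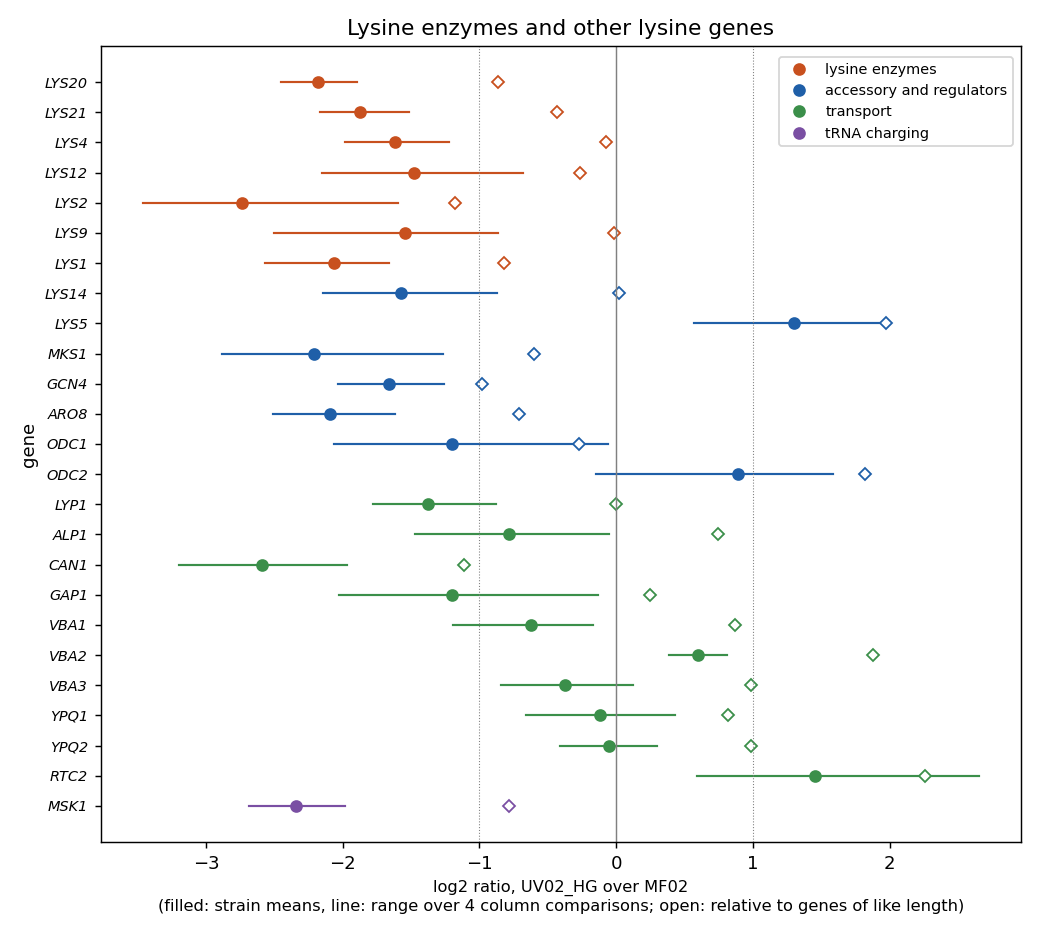
Log2 ratio of UV02_HG over MF02 for the 7 lysine enzymes and the 18 other lysine genes with values, as filled circles with lines for the range over the 4 column comparisons, and relative to genes of like length as open diamonds. Dotted lines mark 2-fold, LYS5 (1.30) and RTC2 (1.45) are the filled circles beyond it on the right, and the open diamonds of the 7 enzymes lie at or left of 0.

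Other groups were set beside the lysine genes without a test, since each strain had 1 sample. The 9 arginine synthesis genes had a median of -1.999, or -0.67 relative to length. Of the 9, 8 were at least 2-fold lower, against 47.2% of all features, with ARG1 (-4.14) and ARG3 (-2.96) lowest. The 7 histidine synthesis genes had a median of -0.87, or -0.09 relative to length. Of these 7, 3 were at least 2-fold lower, against the same 47.2%, with HIS7 (-3.03) and HIS5 (-2.52) lowest. The lysine genes, at -1.87 and -0.43, lay between these medians, and all 7 fell within the range of either list. The histidine median turned to 0.02 after centring on the median feature. Enzymes of like chemistry in the leucine pathway and the citric acid cycle (LEU1, LEU2, LEU4, LEU9, ACO1, IDH1 and IDH2) had a median of -1.63, or -0.22 relative to length. ACO1 (-2.38) and LEU1 (-1.92), the counterparts of LYS4, were the largest in size among them.

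Over the 4 columns, the genes most like the mean of the lysine genes were MID2, a cell wall sensor gene, TUF1, a mitochondrial elongation factor gene, YMR027W, AGE2 and PRM15. Likeness was the Euclidean distance between log2(FPKM + 1) values centred on each gene's own mean, 0.08 to 0.11 for these 5 of 5257 candidates. LYS21 itself lay 0.11 from that mean, with 6 candidates nearer. For the other 6 lysine genes 186 (LYS20) to 1892 (LYS2) candidates were nearer, so many other genes were nearer to the lysine mean than most lysine genes were.

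The genes directly next to the 7 on their chromosomes gave 14 values, with a median log2 ratio of -1.56, and 9 were at least 2-fold lower and 2 higher, against 47.2% and 14.7% of all features. Beside LYS2, RAD16 had -2.27 and TKL2 -2.32. Beside LYS12, PRK1 had -1.93 and RSM25 -1.61, and beside LYS1, MGA2 had -1.02 and NRE1 0.29. Beside LYS4, RTN1 had -2.10 and PRP42 0.45. The ratios of NRE1 and PRP42 turned negative with equal FPKM totals (-0.73 and -0.66). LYS9 stood between MSO1 at -2.08 and the small nucleolar RNA gene snR49 at 3.88, the highest of the neighbours. CDC53, beside LYS21, had -1.52 and MRX19, beside LYS20, had -2.23. Of the 13 neighbours with a coding length, 8 were below 0 relative to length.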

How the data were processed

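The authors deposited FPKM values per feature, with 2 columns per strain, per the file headers. Bowtie2 2.2.3, TopHat2 2.0.12 and HTSeq 0.6.1 are listed in the submitters' processing notes. Neither the genome build nor the strand setting is given in the sources used. Libraries were made from total RNA, per the labels' protocols. Of 7163 features, 6045 matched R64 (RefSeq) locus tags and 6010 had a coding length, and 4 emptied lines were not analysed here. FPKM multiplied by coding length gave whole reads, within 0.02, for 99.8% to 99.9% of genes above 0 at the library totals that fit best. These reads served for counting intervals (exact, Clopper-Pearson for ratios). No count test was run, since each strain had 1 sample.

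A feature was kept at 1 FPKM or more in a strain mean. The 7 members and the gene lists were chosen with earlier results of these data known. Named were all members, all genes of the accessory, transport and charging lists, the 2 with the largest ratio in size of each comparison list, the 5 most similar genes with at least 10 FPKM, and chromosomal neighbours. The accessory list leaves out 1 gene, which is not reported here. The promoter window of 500 bases and the windows for shared sequence were set after the files were seen. Names and neighbours come from R64, and no coordinates are printed because the authors' build is not named. Scripts were tested on simulated data. Software was Biopython 1.88, matplotlib 3.10.9, numpy 2.4.6, pandas 2.3.3, Python 3.11.15 and scipy 1.17.1.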

Additional observations from a re-analysis of the deposited data

How the results depend on the processing

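No paired analysis was possible because each strain had 1 sample, and the numbers 1 and 2 in the column names were taken as runs within it. Chosen settings were changed one at a time in 18 ways. The 7 lysine genes stayed below 0 in every setting tried except the adjustment for length and GC content, under which LYS4 turned to 0.52 and LYS9 to 0.17. Their median of -1.87 became -2.96 with equal FPKM totals, -1.16 with upper quartile scaling, -0.98 after centring on the median feature, -1.02 with the trimmed mean of M values (trims of 30% and 5%), and -1.52 without MF02 column 2. It was -0.43 relative to length with 100 genes on either side, -0.56 with 50 or 200, and -0.11 relative to length and GC content. The count of members at least 2-fold lower was 7 as deposited, against 47.2% of all features. It was 4 with upper quartile scaling (26.7% of features) or the trimmed mean (22.7%), and 3 after centring (20.6%). At a fold threshold of 4 it was 3, against 1118 of 6291 features. Under each of the 4 length adjustments it was 1, against 13.6% to 16.8% of genes. The member count stayed at 6 or 7 with pseudocounts of 0.1 and 5, equal totals, a threshold of 1.5 or any column left out. The shares of all features there were 49.4% and 38.3% with the pseudocounts and 70.1% with equal totals. At a threshold of 1.5, 3637 of 6291 features were lower, and with a column left out 32.7% to 51.7% were at least 2-fold lower.

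Over all features, 2967 were at least 2-fold lower and 927 higher. These counts were 1686 and 1523 with upper quartile scaling, 1296 and 1797 after centring, 1431 and 1650 with the trimmed mean, and 1118 and 307 at a threshold of 4. Equal totals gave 4307 lower (70.1%) and 296 higher, and leaving out MF02 column 2 gave 2056 lower. Relative to length 955 of 5695 genes were lower with 100 genes on either side, 945 with 50, 959 with 200, and 772 relative to length and GC content. Counting error is small at 190 to 3937 reads per member and column. The limit is the 1 sample per strain.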

Other observations

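LYS20 and LYS21 lie in like surroundings on chromosome IV. The gene after LYS20 is INH1 and the gene after LYS21 is STF1, which encode related inhibitors of the mitochondrial ATP synthase, each 455 bases away in R64. INH1 had 826 and 378 FPKM in the MF02 columns and 2051 and 1568 FPKM in those of UV02_HG, and STF1 had 945 and 447 FPKM against 1222 and 1520 FPKM. Both were higher in UV02_HG, with log2 ratios of 1.59 and 0.98, beside homocitrate synthase genes at -2.18 and -1.87, although STF1 turned to -0.07 with equal FPKM totals. INH1 and STF1 are short, at 258 and 261 nt, and for their length they stood at 0.41 and -0.20. Within MF02 both were higher in column 1, while LYS20 and LYS21 were higher in column 2.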
